A study of Mus musculus with 12 samples.

Results

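The genes that load, dock, prime and fuse synaptic vesicles were followed in cochlear RNA. The set was taken by gene symbol and holds all synaptotagmins listed as Syt and a number other than *Syt6*, the synapsins (*Syn1* to *Syn3*), the SV2 proteins (*Sv2a* to *Sv2c*), the VAMPs, the genes named Snap and a number, the syntaxins and syntaxin-binding proteins, the RIMs (*Rims1* to *Rims4*), the complexins, the UNC13 proteins and synaptophysin (*Syp*). These rules gave 68 of the 28686 symbols in the count table. The rule itself uses no measured value, although it was drawn up with earlier results of these data known. Of the 68 genes, 65 passed the filter on low counts, and *Cplx3*, *Cplx4* and *Stx19* did not.

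Total RNA came from the cochlea of 12 mice at postnatal day 6 (P6). The study's methods speak of cochlear tissues, and its results of the cochlear sensory epithelium. The 6 mutants were Sox2CreER/+Jag1fl/fl and the 6 controls were Sox2+/+ littermates, on the strain given as C57BL/6;129SV, and all pups had received tamoxifen on P0 and P1. CreER is a recombinase that tamoxifen activates. Here the allele sits in *Sox2*, supporting cells express it, and it cuts out the floxed piece of the Notch ligand gene *Jag1*. Controls lack CreER, carry at least 1 floxed *Jag1* allele by the breeding scheme, and so also differ from mutants at *Sox2*. For the strain, the study's methods name C57bl6/J for the CreER line and FVB/n for the floxed line, and do not name 129SV. The sources used here do not settle this difference.

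Vesicle fusion is driven by SNARE proteins: a VAMP on the vesicle zips together with a syntaxin and a SNAP-25-type protein on the target membrane. Syntaxin-binding (Munc18) proteins hold and guide the syntaxin, UNC13 (Munc13) and RIM proteins prime and anchor vesicles at the active zone, complexins clamp and assist the assembled complex, and synaptotagmins are the calcium sensors. Every cell fuses vesicles during ordinary trafficking with widely made SNAREs such as SNAP-23, VAMP3 and syntaxin 12, and neurons add isoforms of their own such as SNAP-25 and synaptotagmin 1 or 2. In the cochlea spiral ganglion neurons make many of the neuronal isoforms, hair cells make some of them, and inner hair cells release glutamate at ribbon synapses with otoferlin in place of the usual calcium sensors. For the contrast of isoforms the 68 genes were divided by textbook expression into 32 neuronal, 19 ubiquitous and 17 other genes, the last made in endocrine, epithelial, immune or mixed cells.

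Each library held 28498549 to 36134983 counted reads, and the totals of the genotypes overlapped. *Jag1*, the targeted gene, had 101.9 ± 14.7 CPM (counts scaled to library size with TMM, as is every CPM value here; SD, n = 6) in controls, and mutants had 36.4 ± 6.56 CPM (adjusted p = 0.000258 by the quasi-likelihood test of edgeR). Its highest mutant was at 42.9 CPM and its lowest control at 83.0 CPM, so the gene goes with all 12 labels. Mutant 4 stood apart: the peripheral neuron gene *Prph* was at 155.0 CPM and the sodium channel gene *Scn9a* at 59.5 CPM there, against at most 1.35 and 4.37 CPM in the other 11 mice. The summed level of 17 neuron markers was 317 to 493 CPM in controls and 412 to 1736 CPM in mutants, with 5 of 6 mutants above the highest control. All 17 were detected in every mouse and none was at 0. Of these, 15 were higher in mutants at an unadjusted p under 0.05, where 6.52% of all genes tested were higher and 4.04% lower. The 13 Schwann cell markers summed to 585 to 1635 CPM in controls and 1341 to 6588 CPM in mutants, and 12 of the 13 were higher at that threshold. The 16 hair cell markers, at 548 to 620 CPM and 553 to 665 CPM, overlapped between the genotypes and each was detected in every mouse. The 12 supporting cell markers summed to 7928 to 9956 CPM in controls and 7072 to 8958 CPM in mutants, and the 10 macrophage markers to 337 to 425 CPM and 271 to 367 CPM, with 3 and 5 of them lower in mutants at that threshold. The part of these marker differences in the results that follow was not tested. In RNA from dissected tissue of many cell types, more or fewer cells of a type in the sample and more or less RNA per cell cannot be told apart. How much neuron or Schwann cell material each dissection held is not stated in the sources used here.

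Many neuronal isoforms passed an unadjusted p of 0.05, and the ubiquitous ones differed little between genotypes. Of the 30 neuronal genes tested, 18 were higher in mutants at an unadjusted p under 0.05 and none was lower. Among them were *Snap25*, *Snap91*, *Vamp1*, *Syt2*, *Syt3*, *Syt5*, *Cplx1*, *Rims1*, *Rims3*, *Rims4*, *Unc13a*, *Syn1*, *Syn2*, *Sv2a*, *Sv2b* and *Syp*. The same direction and threshold took 6.52% of all 18459 genes tested. The median log2 fold change of the 30 was 0.69, against 0.003 over all genes, and the values ran from -0.21 (*Syt1*) to 2.83 (*Cplx1*). None of the 19 ubiquitous genes reached an unadjusted p of 0.05 in either direction, where 10.6% of all genes did (4.04% lower). Over 19 genes that share is a small count, so finding none does not by itself set this class apart. Their log2 fold changes lay between -0.10 (*Snap29*) and 0.13 (*Stx2*), with a median of 0.018 and a smallest p of 0.121. Among the 16 other genes tested, *Syt7*, *Syt11*, *Syt17* and *Stxbp6* were higher and *Syt15* was lower at an unadjusted p under 0.05. Of the 65 genes, 47 had log2 fold changes above 0, as 50.9% of all genes did.

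After adjustment over all 18459 genes by the Benjamini-Hochberg method, 1 of the 65 genes was called higher by edgeR and none lower. That gene was *Rims1*, and 0.108% of all genes were called higher and 0.0813% lower. DESeq2, the tool the study used, called 17 of the 65 higher (15 neuronal, the others *Syt7* and *Syt11*) and none lower, where it called 2.56% of all genes higher and 0.791% lower. In 5 genes, *Rims1*, *Snap91*, *Sv2a*, *Sv2b* and *Syt3*, every mutant lay above every control, which held for 0.618% of all genes. All 5 are neuronal, and no member had every mutant below every control, as 0.379% of all genes did. Without mutant 4, 16 of the 30 neuronal genes were higher at an unadjusted p under 0.05, where 5.63% of all genes were, *Syt5* and *Unc13a* dropping out, and *Syt1* was lower (3.85% of all genes), the neuronal median was 0.52 and *Rims1* alone stayed called. Without mutant 5, whose neuronal levels resembled those of the controls, edgeR called 14 of the 65 genes higher, where it called 1.72% of all genes higher. That mouse was singled out for those levels, so more calls among these genes follow from the choice and add no support.

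**Figure D1:**
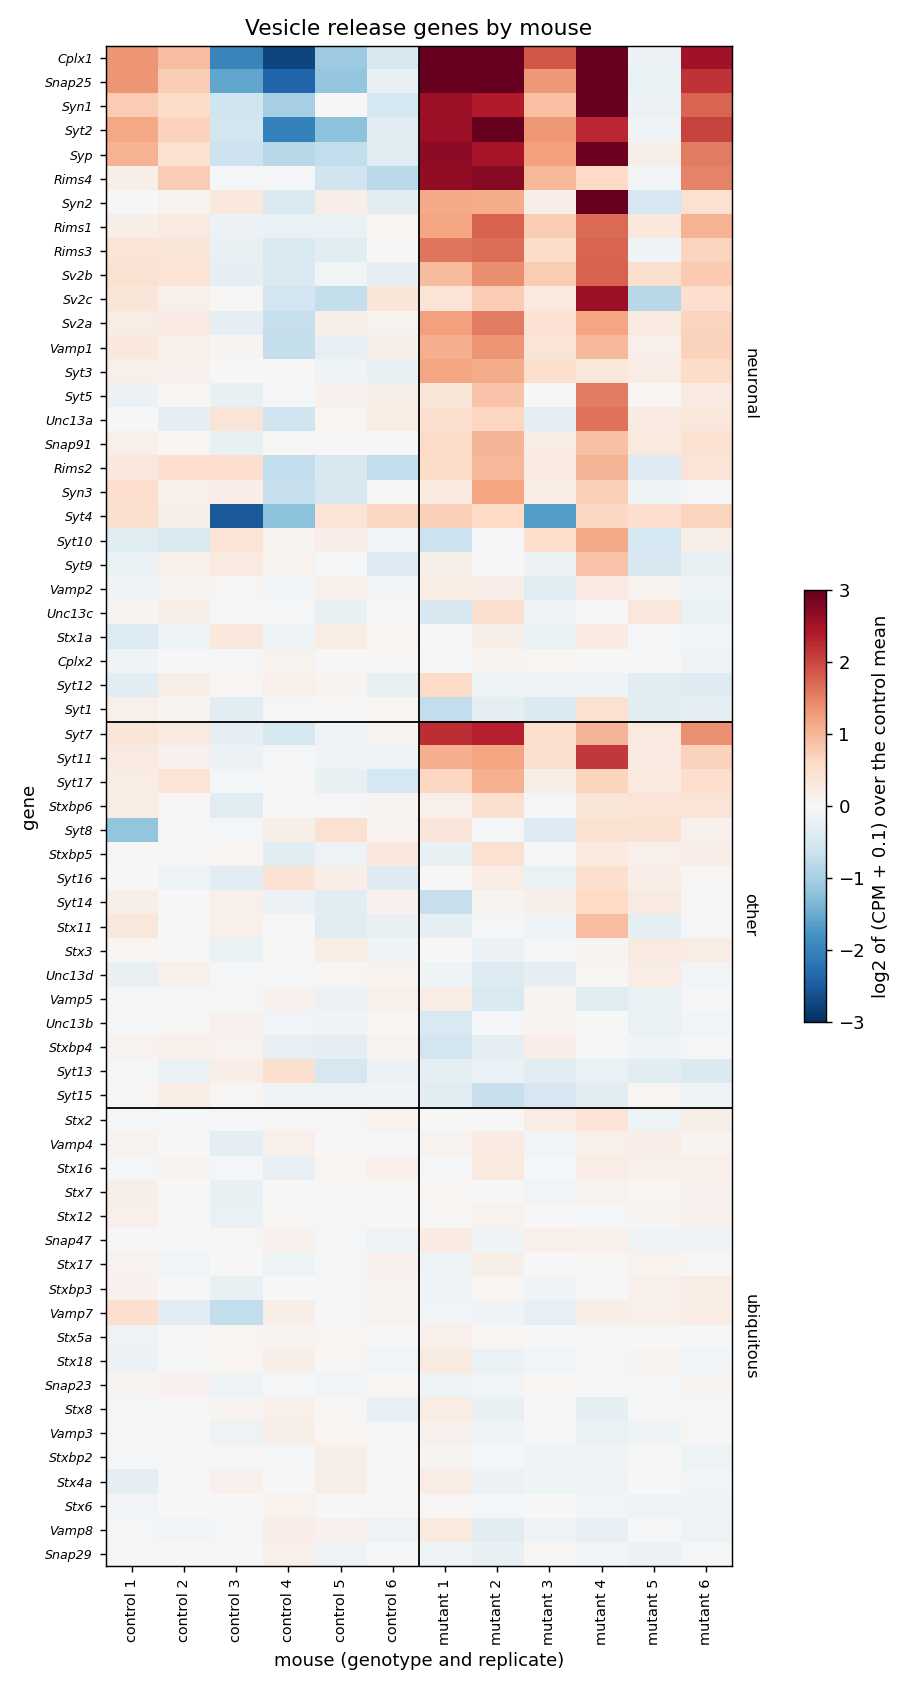
Each row is 1 of 63 genes tested and each column 1 mouse, and the colour is the log2 of (CPM + 0.1) over the control mean of that gene, with values beyond 3 drawn at the end of the scale. Red fills the upper part of the neuronal block in mutants 1, 2, 4 and 6, is paler in mutant 3 and is nearly absent in mutant 5, while the 19 ubiquitous rows stay pale apart from *Vamp7* in controls 1 and 3.

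**Figure D2:**
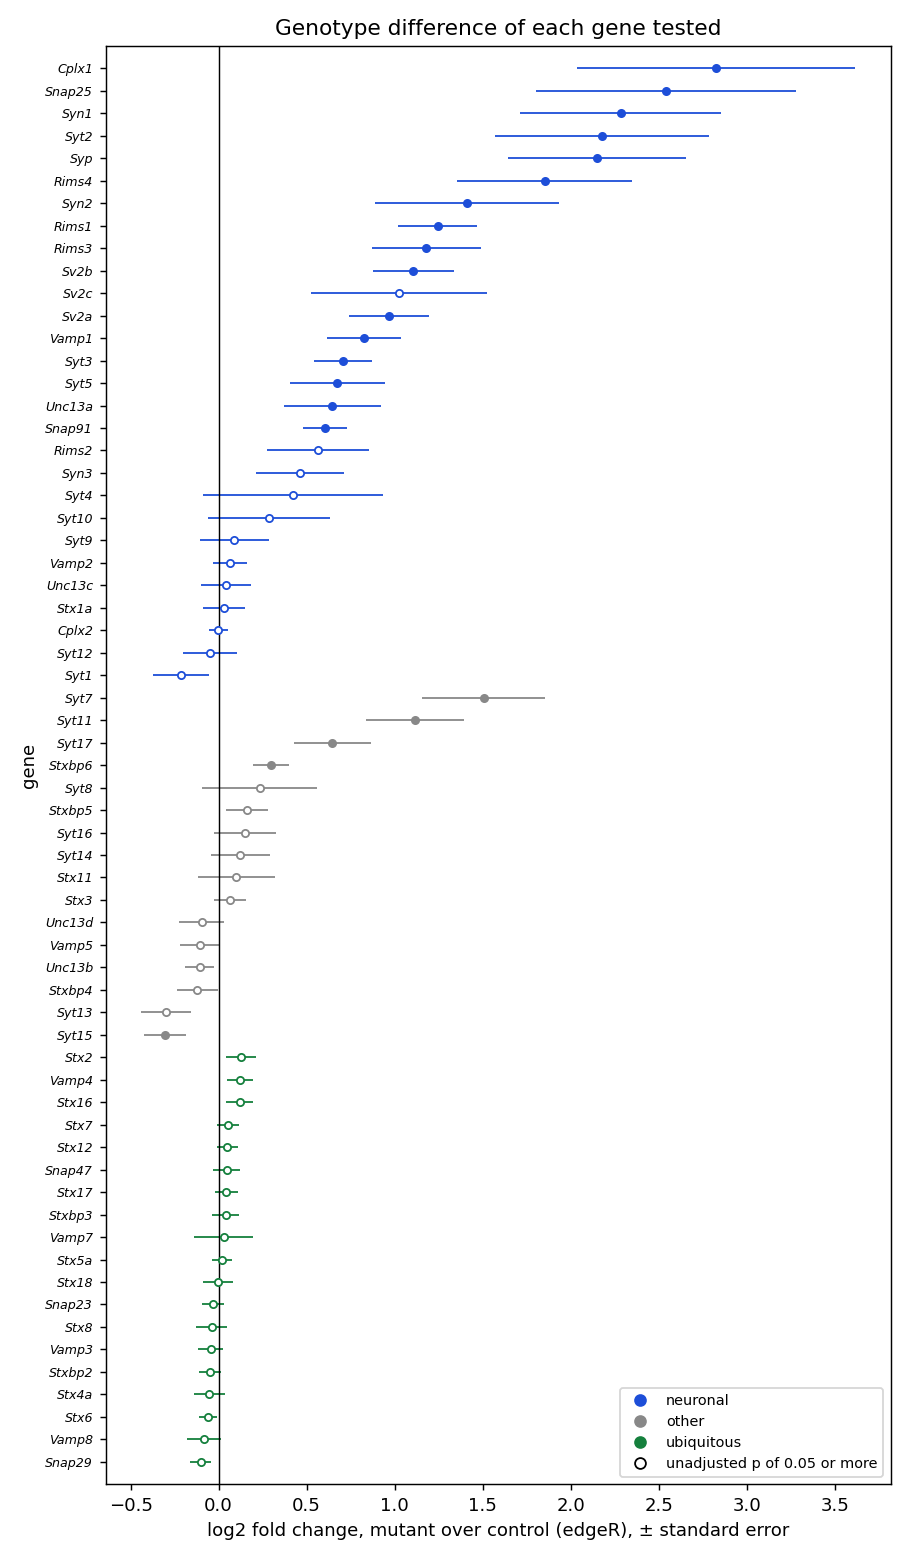
Points are log2 fold changes (mutant over control, edgeR) with their standard errors, coloured by class, and open points have an unadjusted p of 0.05 or more. The neuronal genes spread from -0.21 to 2.83, the ubiquitous genes from -0.10 to 0.13.

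Promoter sequences are shown for genes of both classes, neuronal and ubiquitous. RefSeq promoters on GRCm38.p6 (250 bases before to 50 after each start) were at hand for 51 of the 68 genes, some with more than 1 start. They were searched on both strands for both arms of the RE1 element, the site of the repressor REST that silences many neuronal genes in other cells (the left arm is TTCAGCACC, and the reverse complement of the right arm opens the *Unc13a* sequence shown here), and for the cyclic AMP response element (TGACGTCA), the TATA box (TATAAA) and the SP1 box (GGGCGG). The 250 bases upstream of the *Syn1* start (chrX:20920919-20921168, minus strand) hold an RE1 left arm and a cyclic AMP response element, in capitals. Bases upstream of *Rims1* (chr1:22806159-22806408, minus strand) hold SP1 boxes, in capitals, and those of *Snap23*, a ubiquitous gene (chr2:120567421-120567670, plus strand), hold none of these letters. Both RE1 arms occur, as reverse complements, 5 to 31 bases after the *Unc13a* start (chr8:71671727-71671753, minus strand). All are written 5′ to 3′ on the strand of the gene.
Syn1: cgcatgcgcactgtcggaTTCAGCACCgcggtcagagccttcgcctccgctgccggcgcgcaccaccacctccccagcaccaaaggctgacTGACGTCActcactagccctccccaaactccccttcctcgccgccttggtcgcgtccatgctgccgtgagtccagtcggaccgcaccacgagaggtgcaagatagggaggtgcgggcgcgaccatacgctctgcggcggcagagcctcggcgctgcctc
Rims1: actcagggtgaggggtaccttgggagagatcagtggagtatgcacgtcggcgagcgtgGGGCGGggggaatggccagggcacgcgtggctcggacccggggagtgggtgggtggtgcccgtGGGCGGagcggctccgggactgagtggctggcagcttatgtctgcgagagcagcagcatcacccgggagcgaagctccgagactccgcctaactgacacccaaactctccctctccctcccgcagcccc
Snap23: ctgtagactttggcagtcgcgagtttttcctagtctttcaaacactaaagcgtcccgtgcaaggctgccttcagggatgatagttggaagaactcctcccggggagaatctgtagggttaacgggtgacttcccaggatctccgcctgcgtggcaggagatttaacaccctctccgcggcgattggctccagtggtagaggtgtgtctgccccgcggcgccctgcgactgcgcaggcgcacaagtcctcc
Unc13a: GGCGCTGTCCgcgcccccGGTGCTGAA

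The RE1 left arm was in 2 of 27 neuronal promoters (*Syn1* and *Unc13a*), in none of the 22 ubiquitous or 15 other promoters, and in 0.371% of all 32851 promoters of this length. The right arm was in 1 neuronal promoter, that of *Unc13a*, and in 0.137% of all. The cyclic AMP response element was in 1 neuronal promoter (*Syn1*) and 1 ubiquitous promoter, against 1.79% of all. SP1 boxes were in 66.7% of the neuronal, 63.6% of the ubiquitous and 35.7% of all promoters, and the TATA letters in 7.41%, 4.55% and 13.6%. Median GC content was 62.3% in the neuronal, 60.3% in the ubiquitous and 52.7% in all promoters. These matches are letters in a window and not measured sites, and both classes of isoform lay in GC-rich promoters.

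Of the SNAP-25-type SNAREs, the neuronal one was higher in most mutants and the ubiquitous ones were level. *Snap25*, the plasma membrane SNARE of neurons (chromosome 2, 136713453 to 136782428 on GRCm38), ranged over 1.496 to 20.5 CPM in controls (median 5.25) and 7.03 to 83.4 CPM in mutants (median 51.7). Mutants 1, 2, 4 and 6 were above every control and mutants 3 and 5 fell within the control range, which itself spanned more than 10-fold. Mutants exceeded controls by 2.54 ± 0.74 on the log2 scale (± standard error derived from the edgeR F statistic). The adjusted p of *Snap25* was 0.164 by edgeR and 0.015 by DESeq2. On chromosome 2 *Snap25* lies close to the targeted *Jag1* (137081456 to 137116644), and whether this bears on its level was not tested. *Snap23*, its counterpart in non-neuronal cells (chromosome 2, 120567671 to 120601255), ranged over 51.0 to 62.0 CPM in controls and 51.2 to 60.1 CPM in mutants, and all 6 mutants fell within the control range. *Snap29*, used in autophagy and other internal fusion, and *Snap47*, another widely made relative, had log2 fold changes of -0.10 and 0.047. *Snap47* shares 11.6% of its exon bases with a gene on the other strand, and reads of such partners cannot be told apart because the strandedness of the libraries is not stated in the sources used here. *Snap91* fits the symbol rule but encodes AP180, a clathrin assembly protein of synaptic vesicle recycling and not a SNARE. *Snap91* was at 18.4 to 23.95 CPM in controls (median 21.7) and 25.1 to 43.7 CPM in mutants (median 31.0). Every mutant exceeded every control, by 0.60 ± 0.13 on the log2 scale (adjusted p = 0.0738 by edgeR and 0.00146 by DESeq2).

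Among the vesicle SNAREs, *Vamp1* had an unadjusted p under 0.05 and *Vamp2* did not. *Vamp1*, a VAMP of spinal cord and brainstem neurons, was at 21.8 to 45.3 CPM in controls (median 39.0) and 40.3 to 90.5 CPM in mutants (median 64.4). Mutant 5 alone fell within the control range, and the log2 fold change was 0.83 ± 0.21 (adjusted p = 0.108 by edgeR and 0.00392 by DESeq2). *Vamp2*, the main VAMP of brain synapses, was at 140.2 to 169 CPM in controls (median 152) and 119 to 181 CPM in mutants (median 170.0), and its log2 fold change was 0.063 ± 0.10 (adjusted p = 0.916, edgeR). *Vamp3* (cellubrevin), its ubiquitous counterpart in endosomal recycling, was at 93.0 to 117 CPM in controls and 89.8 to 114 CPM in mutants. *Vamp8*, an endosomal and lysosomal SNARE, was at 79.6 to 102 CPM in controls and 71.7 to 108 CPM in mutants. *Vamp4*, *Vamp7* and *Vamp5* had log2 fold changes of 0.12, 0.03 and -0.11, none at an unadjusted p under 0.05.

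The syntaxins described here had unadjusted p of 0.05 or more. *Stx1a*, a neuronal syntaxin of the plasma membrane, was at 9.91 to 16.5 CPM in controls and 11.6 to 15.7 CPM in mutants, all mutants within the control range. *Stx3*, a syntaxin of apical epithelial membranes, was at 15.6 to 20.9 CPM in controls and 16.0 to 21.5 CPM in mutants. Its log2 fold change was 0.065 (adjusted p = 0.899, edgeR). Ubiquitous syntaxins differed as little: *Stx4a* of the plasma membrane had a log2 fold change of -0.052, and the endosomal *Stx7* and *Stx12* had 0.053 and 0.05. Under the filter, *Stx19* had 0 to 9 reads per mouse.

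Among the syntaxin-binding proteins, *Stxbp2*, a widely made form used by epithelial and immune cells, was at 58.3 to 69.4 CPM in controls and 55.2 to 65.2 CPM in mutants, and *Stxbp3*, the ubiquitous form, at 37.4 to 47.9 CPM in controls and 40.1 to 51.0 CPM in mutants. Reads of *Stxbp3* may be divided with a listed pseudogene, *Stxbp3-ps*. *Stxbp6* (amisyn), which binds plasma membrane SNAREs, was at 25.5 to 37.9 CPM in controls (median 32.9) and 31.4 to 45.1 CPM in mutants (median 42.1) with a log2 fold change of 0.30 ± 0.10 (adjusted p = 0.229, edgeR).

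The ratio of a neuronal to a ubiquitous isoform within a mouse does not depend on scaling between libraries, and was formed from CPM without correction for length, so that it is compared between genotypes only. Of 4 pairs tested, 2 are given. The log2 ratio of *Snap25* to *Snap23* was -5.20 to -1.56 in controls and -2.98 to 0.61 in mutants, with 4 mutants above the highest control. Its mean was 2.72 higher in mutants (p = 0.0108 by an exact two-sided permutation test over all divisions of the mice into 6 and 6, 0.026 adjusted over the 4 pairs tested). The *Vamp2* to *Vamp3* ratio did not differ beyond its spread, at 0.56 ± 0.18 in controls and 0.66 ± 0.30 in mutants (SD, n = 6, exact permutation p = 0.513). Its range was 0.30 to 0.76 in controls and 0.20 to 1.01 in mutants. Here 3 mutants were above the highest control and mutant 3 was below the lowest. The smallest p this design can give is 0.00216. With *Snap23* level between genotypes, the *Snap25*/*Snap23* ratio restates the *Snap25* difference and adds no separate support. Its adjustment covered only the 4 pairs, whereas over all genes *Snap25* had an adjusted p of 0.164 by edgeR. The classes that the pairs contrast were drawn up with earlier results of these data known. Leaving out control 4 or 5 or mutant 1, 2, 4 or 6 put the adjusted p of *Snap25*/*Snap23* at 0.0519, with differences of 2.35 to 2.73, and the call was kept in the 6 other cases.

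**Figure D3:**
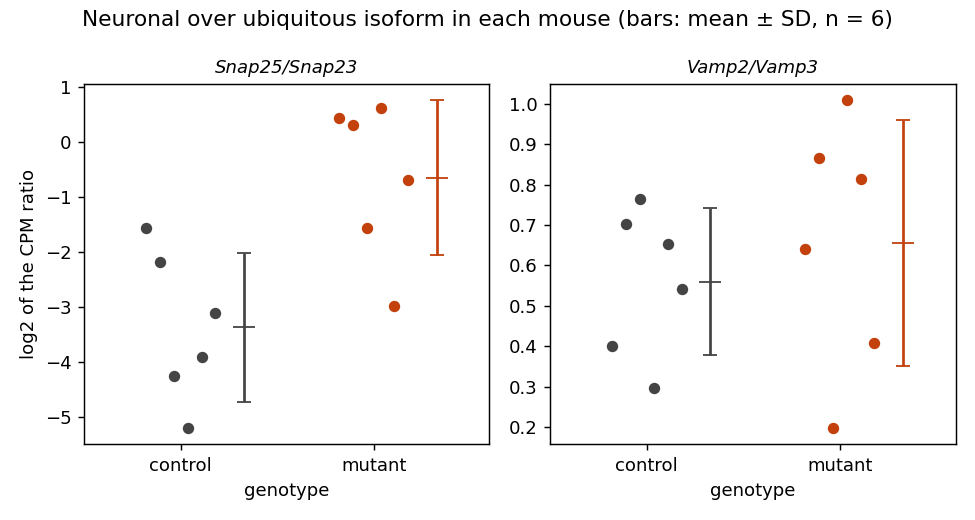
Points are mice, the vertical axes are the log2 ratio of the CPM of the neuronal to the ubiquitous isoform, and bars give the mean ± SD of 6 mice. The ranges overlap in both panels. Above the highest control lie 4 mutants for *Snap25*/*Snap23* (difference of means 2.72) and 3 for *Vamp2*/*Vamp3* (0.10), where mutant 3 is below the lowest control.

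Of the 16 synaptotagmins tested, 6 were higher in mutants at an unadjusted p under 0.05 and 1 was lower, where 6.52% and 4.04% of all genes were. *Syt2*, a fast calcium sensor of brainstem and spinal synapses, was at 0.904 to 8.95 CPM in controls (median 2.94) and 3.66 to 34.0 CPM in mutants (median 17.9). Mutant 5 alone stayed within the control range, and the log2 fold change was 2.18 ± 0.61 (adjusted p = 0.145 by edgeR and 0.016 by DESeq2). *Syt1*, the fast sensor of forebrain synapses, went the other way in most mice: 60.1 to 82.8 CPM in controls (median 75.6) against 44.6 to 102 CPM in mutants (median 60.7). Its 5 lowest mutants were at 44.6 to 61.8 CPM and mutant 4 was at 102.4 CPM. Over all mice the log2 fold change of *Syt1* was -0.21 ± 0.16 (adjusted p = 0.759, edgeR), and without mutant 4 it was -0.39 (adjusted p = 0.097, edgeR).

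*Syt7*, a slow sensor for asynchronous release, replenishment and lysosome exocytosis, was at 4.14 to 7.41 CPM in controls (median 5.72) and 7.05 to 29.3 CPM in mutants (median 13.4). Only mutant 5 lay inside the control range, and the log2 fold change was 1.51 ± 0.35 (adjusted p = 0.0937 by edgeR and 0.00392 by DESeq2). *Syt11*, which does not bind calcium and acts in endocytosis, was at 23.8 to 32.6 CPM in controls (median 25.5) and 31.9 to 118 CPM in mutants (median 50.2), a log2 fold change of 1.11 ± 0.28 (adjusted p = 0.108 by edgeR and 0.00913 by DESeq2). The highest mutant was mutant 4, and without it the value was 0.78 (adjusted p = 0.0538, edgeR). *Syt3* was at 5.08 to 6.67 CPM in controls (median 6.05) and 6.97 to 13.7 CPM in mutants (median 8.54), all mutants above all controls, and the log2 fold change was 0.71 ± 0.17 (adjusted p = 0.0864 by edgeR and 0.00533 by DESeq2). *Syt5* (0.722 to 0.987 CPM in controls and 0.848 to 2.69 CPM in mutants) and *Syt17* (0.465 to 0.982 CPM in controls and 0.819 to 1.61 CPM in mutants) rested on few reads. *Syt5* had a log2 fold change of 0.67 ± 0.27 (adjusted p = 0.356, edgeR), or 0.37 without mutant 4 (adjusted p = 0.648, edgeR), and *Syt17* one of 0.65 ± 0.22 (adjusted p = 0.219, edgeR). *Syt15* was the 1 member lower in mutants at this threshold, at 7.43 to 9.43 CPM in controls and 4.97 to 8.34 CPM in mutants, with a log2 fold change of -0.30 ± 0.12 (adjusted p = 0.357, edgeR). *Syt4*, a synaptotagmin of dense-core vesicles, varied within both genotypes: control 3 (1.72 CPM), control 4 (4.30 CPM) and mutant 3 (3.16 CPM) were low and the other 9 mice were at 11.6 to 16.96 CPM. An exon of another gene covers 14.5% of the *Syt4* exon bases on the opposite strand.

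The complexins were divided by gene. *Cplx1*, which binds assembled SNARE complexes ahead of the calcium signal, was at 1.18 to 21.6 CPM in controls (median 5.02) and 7.57 to 106 CPM in mutants (median 59.0), with the largest standard error of the members tested. All mutants but mutant 5 were above the highest control, and the log2 fold change was 2.83 ± 0.79 (adjusted p = 0.147 by edgeR and 0.00998 by DESeq2). *Cplx2*, its closest relative, was at 40.4 to 47.3 CPM in controls and 41.3 to 46.7 CPM in mutants, with a log2 fold change of -0.0013 ± 0.055. The other complexins, *Cplx3* and *Cplx4*, had 0 to 2 and 0 to 4 reads per mouse and were not tested.

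Within these families the neuronal genes fell into those that passed an unadjusted p of 0.05 and those that did not, which was seen in the values and is given without a test. The ratio of *Cplx1* to *Cplx2* in CPM was 0.20 ± 0.20 in controls and 1.37 ± 0.88 in mutants (SD, n = 6), that of *Syt2* to *Syt1* was 0.0518 ± 0.0365 and 0.298 ± 0.202, and that of *Vamp1* to *Vamp2* was 0.237 ± 0.0629 and 0.400 ± 0.0894. Ranges overlapped in all 3, with mutant 5 within the control range for each. Per kilobase of exon, the gene of each pair that did not pass the test had the higher mean in controls: *Vamp2* at 40.1 ± 3.04 against *Vamp1* at 3.55 ± 0.83 CPM per kilobase, *Syt1* at 8.91 ± 0.94 against *Syt2* at 0.520 ± 0.406, and *Cplx2* at 8.96 ± 0.47 against *Cplx1* at 3.91 ± 3.85.

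**Figure D4:**
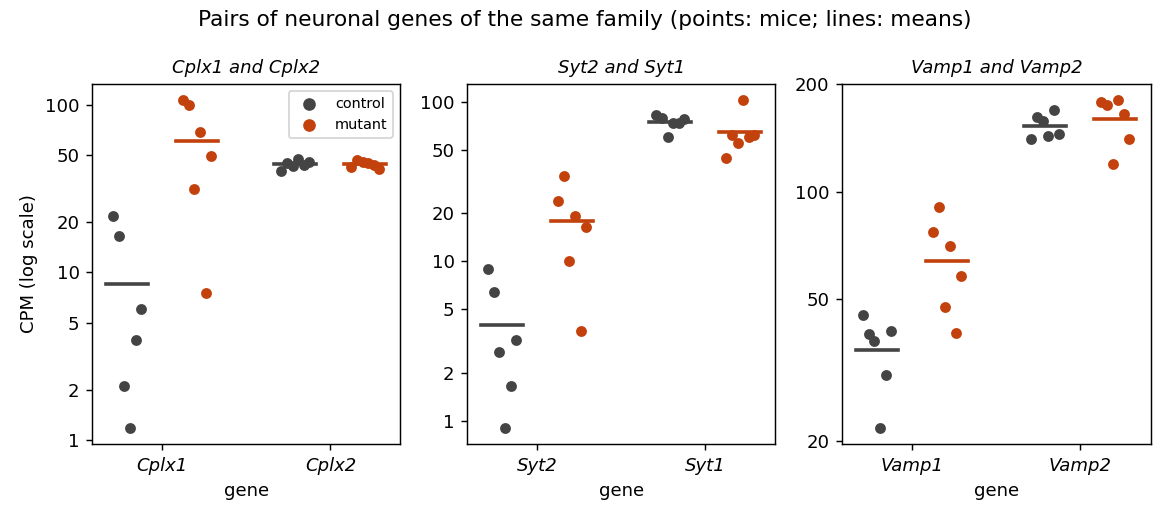
Each panel shows the CPM of a pair of neuronal genes of the same family on a log scale, with 1 point per mouse and a line at the mean of 6 mice. The left gene of each pair is higher in most mutants (*Cplx1* 1.18 to 21.6 CPM in controls and 7.57 to 106 in mutants), the right gene overlaps between genotypes (*Cplx2* 40.4 to 47.3 and 41.3 to 46.7).

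At the active zone all 4 RIM genes had log2 fold changes above 0, as 50.9% of all genes did. Of the 4, 3 were higher at an unadjusted p under 0.05, as 6.52% of all genes were. *Rims1* (chromosome 1, 22286251 to 22805994 on GRCm38), a scaffold that tethers vesicles and calcium channels, was at 2.37 to 3.33 CPM in controls (median 2.64) and 3.42 to 9.65 CPM in mutants (median 6.05). Every mutant was above every control, the log2 fold change being 1.24 ± 0.22 and its adjusted p 0.0432 by edgeR and 5.15e-05 by DESeq2. Leaving out 1 mouse moved the adjusted p between 0.00834 and 0.120, and the call was lost in 9 of the 12 cases (6 controls and mutants 1, 2 and 6), while the log2 fold change stayed between 1.098 and 1.38. *Rims2*, a close relative, was at 1.74 to 4.23 CPM in controls and 2.24 to 6.17 CPM in mutants (log2 fold change 0.56 ± 0.29, adjusted p = 0.544 by edgeR). The short forms *Rims3*, at 6.73 to 12.2 CPM in controls and 8.45 to 31.0 CPM in mutants, and *Rims4*, at 0.494 to 1.67 CPM in controls and 0.875 to 6.76 CPM in mutants, had log2 fold changes of 1.18 ± 0.31 and 1.85 ± 0.50, with adjusted p of 0.121 and 0.123 by edgeR and 0.0166 and 0.00437 by DESeq2. Mutants 1 and 2 were the highest for *Rims4* (6.41 and 6.76 CPM), and mutant 4 was within the control range at 1.46 CPM.

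The UNC13 priming proteins gave no such pattern. *Unc13a*, the neuronal form, was at 5.17 to 10.3 CPM in controls (median 7.96) and 6.50 to 24.5 CPM in mutants (median 10.4), with a log2 fold change of 0.65 ± 0.28 (adjusted p = 0.414, edgeR). Mutant 4 was the highest, and without it the value was 0.33 (adjusted p = 0.665, edgeR). *Unc13b*, which is also made in epithelia, was at 177 to 205 CPM in controls and 139 to 199.8 CPM in mutants. Per kilobase it was the highest of the 4 in controls, at 8.33 ± 0.48 against 0.62 to 1.66 CPM per kilobase for the others. *Unc13b*, *Unc13c* and *Unc13d* had log2 fold changes of -0.11, 0.044 and -0.10, none at an unadjusted p under 0.05.

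Of the genes for synaptophysin, synapsins and SV2 proteins, *Syp*, *Syn1*, *Syn2*, *Sv2a* and *Sv2b* were higher in mutants at an unadjusted p under 0.05, and *Syn3* and *Sv2c* did not pass. *Syp* (synaptophysin), an abundant vesicle membrane protein, was at 2.12 to 8.02 CPM in controls (median 2.72) and 4.38 to 30.2 CPM in mutants (median 16.8). Mutant 5 alone was within the control range, and the log2 fold change was 2.15 ± 0.50 (adjusted p = 0.0958 by edgeR and 0.0026 by DESeq2). Another gene on the other strand covers 16.8% of the *Syp* exon bases. *Syn1*, a synapsin that tethers the reserve pool and whose RE1 arm is shown above, was at 1.46 to 5.17 CPM in controls (median 2.53) and 2.68 to 35.0 CPM in mutants (median 13.3), a log2 fold change of 2.28 ± 0.57 (adjusted p = 0.112 by edgeR and 0.00442 by DESeq2). *Syn2* was at 2.18 to 3.71 CPM in controls (median 3.09) and 2.08 to 24.5 CPM in mutants (median 5.31). Its log2 fold change was 1.41 ± 0.52 (adjusted p = 0.315, edgeR) and 0.62 without mutant 4 (adjusted p = 0.46, edgeR). *Syn3* was at 1.99 to 4.70 CPM in controls and 3.01 to 7.67 CPM in mutants (log2 fold change 0.46, adjusted p = 0.583 by edgeR). Exons of *Timp3* on the opposite strand cover 14.1% of the *Syn3* exon bases.

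Of the SV2 proteins, transporter-like vesicle glycoproteins, *Sv2a* was at 6.86 to 13.2 CPM in controls (median 12.3) and 13.4 to 32.7 CPM in mutants (median 21.5), and *Sv2b* at 4.24 to 7.98 CPM in controls (median 5.07) and 8.09 to 20.02 CPM in mutants (median 10.7). In both, every mutant was above every control, although for *Sv2a* the gap between the highest control and the lowest mutant was small (13.2 and 13.4 CPM). Their log2 fold changes were 0.97 ± 0.23 and 1.11 ± 0.23, with adjusted p of 0.0933 and 0.0746 by edgeR and 0.00192 and 0.000428 by DESeq2. *Sv2c* was at 5.93 to 12.7 CPM in controls (median 10.6) and 5.47 to 58.8 CPM in mutants (median 13.5), where mutant 4 was at 58.8 CPM and the other mutants at 5.47 to 16.7 CPM. Its log2 fold change was 1.03 ± 0.50 (adjusted p = 0.516, edgeR) and 0.32 without mutant 4 (adjusted p = 0.863, edgeR).

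Per kilobase of exon the ubiquitous genes had the highest levels of the release machinery in the P6 cochlea, with *Vamp2* among them. In controls *Vamp2* was at 40.1 ± 3.04 CPM per kilobase, *Stx12* at 39.5 ± 3.10, *Vamp8* at 38.5 ± 3.76 and *Vamp3* at 35.9 ± 2.86, and each neighbour in this order overlapped the next. The next gene, *Snap47*, was at 27.0 ± 1.66, below every control value of *Vamp3*. Of the 10 highest genes 9 were ubiquitous, *Vamp2* being the exception, and of the 20 highest 15 were. The median level was 16.1 CPM per kilobase over 18 ubiquitous genes, 1.43 over 30 neuronal and 1.78 over 16 other genes, with *Vamp7* left out for want of a gene model. *Snap23* stood at 13.3 ± 1.01 against 1.198 ± 1.102 for *Snap25*. The same 4 genes led in mutants, at 41.9 ± 6.47 for *Vamp2*, 40.9 ± 1.86 for *Stx12*, 36.3 ± 5.69 for *Vamp8* and 34.8 ± 3.10 for *Vamp3*. With the longest transcript as length, *Vamp2* stayed first and *Vamp3* was second.

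*Snap25* and the neuron markers ordered the mutants alike. *Snap25* ranked the mutants as 4, 1, 2, 6, 3 and 5 (83.4, 69.5, 66.4, 37.0, 20.1 and 7.03 CPM). The summed neuron markers gave the same order, at 1736, 993, 926, 667, 513 and 412 CPM. Schwann cell markers did not: mutant 4 had the lowest Schwann sum of the mutants, at 1341 CPM, within the control range of 585 to 1635 CPM, and mutants 1 and 2 had the highest at 6588 and 5025 CPM. The sum of the 32 neuronal members was 462 to 598 CPM in controls and 547 to 1098 CPM in mutants, highest in mutant 4 and lowest in mutant 5. The sum of the 19 ubiquitous members was 1201 to 1323 CPM in controls and 1251 to 1333 CPM in mutants. *Sv2c*, *Syn2*, *Unc13a*, *Syt1* and *Syt11* were high in mutant 4 beyond the other mutants, whereas *Rims4*, *Syt2*, *Syt7* and *Cplx1* were higher in mutants 1 and 2. How far the markers account for the genotype difference of the members was not tested.

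**Figure D5:**
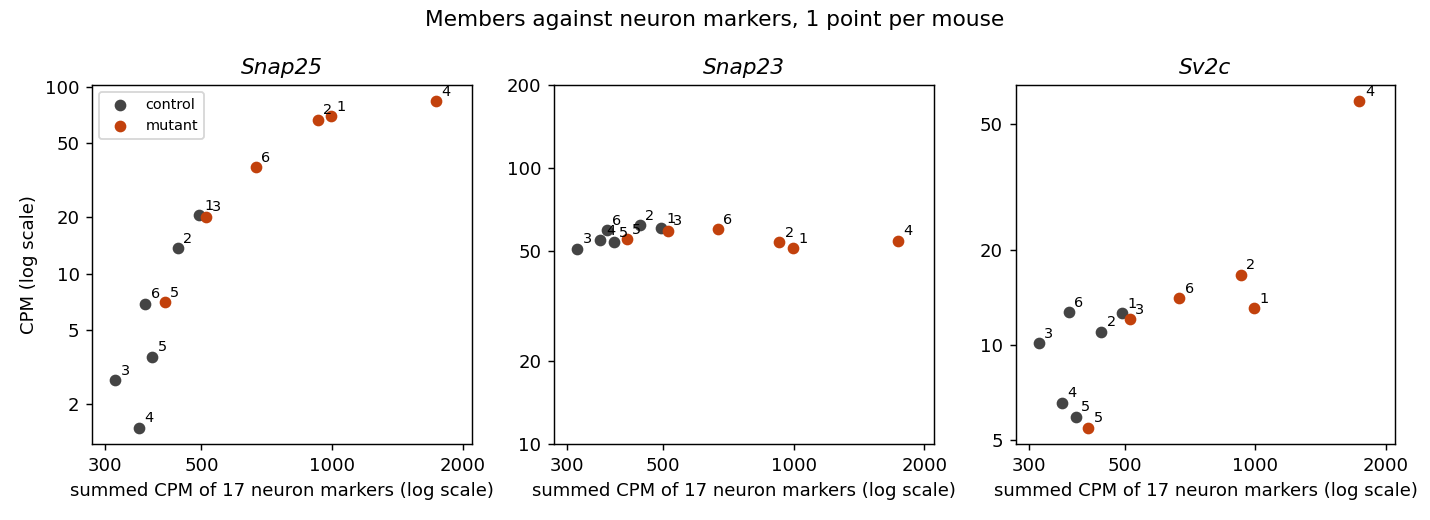
The horizontal axis is the summed CPM of 17 neuron markers and the vertical axis the CPM of a gene, both on log scales, with 1 numbered point per mouse. *Snap25* climbs from 1.496 to 83.4 CPM along the marker sum, *Snap23* stays between 51.0 and 62.0 CPM, and *Sv2c* is at 58.8 CPM in mutant 4 and at most 16.7 CPM in all other mice.

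Other genes of the vesicle cycle and active zone, from a list of 49 that shares no gene with the 68, gave a mixed picture. Of 45 tested, 19 were higher and 1 was lower at an unadjusted p under 0.05, against 6.52% and 4.04% of all genes. None passed adjustment by edgeR, DESeq2 called 9 (8 higher) where it called 2.56% of all genes higher and 0.791% lower, and the median log2 fold change was 0.19. The vesicular glutamate transporters of neurons, *Slc17a6* and *Slc17a7*, had log2 fold changes of 2.62 ± 0.68 and 2.51 ± 0.86, from 0.756 to 2.14 CPM in controls and 1.15 to 25.2 CPM in mutants for the former. The priming factor *Cadps* (2.60 ± 0.70), the synaptophysin relative *Syngr3* (2.16 ± 0.55), the RAB3 effector *Rph3a* (1.94 ± 0.60) and the neuronal SNAP *Napb* (1.31 ± 0.35), which helps take spent SNARE complexes apart, were also higher. The active zone scaffolds *Pclo*, *Bsn* and *Erc2* had log2 fold changes of 0.95, 0.65 and 0.57, and *Rab3a*, the main RAB of synaptic vesicles, one of 0.61 ± 0.15 (adjusted p = 0.0937, edgeR). The others higher at that threshold were *Dnm1*, *Ppfia3*, *Ppfia4*, *Amph*, *Rab3c*, *Scamp5*, *Nsf*, *Napg* and *Synpr*. *Rab3b* was lower, at 3.61 to 5.60 CPM in controls and 1.21 to 5.61 CPM in mutants, a log2 fold change of -1.05 ± 0.34 (adjusted p = 0.198, edgeR). Without mutant 4, 12 of the list were higher and 2 lower at that threshold, where 5.63% and 3.85% of all genes were.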

How the data were processed

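The authors deposited raw read counts per gene symbol, 1 column per mouse, as whole numbers without normalization or pooling. Per the labels' processing notes, the tools were Trimmomatic 0.32, STAR 2.4.2a, HTSeq 0.9.1 and DESeq2 1.10.1 on GRCm38.p4, and the annotation is not given in the sources used here. The reads were single-end and 100 nt long. The authors' DESeq2 comparison (mean, fold change, statistic, p-values) was not used. Of the sample columns, 0 were left unmapped.

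The 18459 genes averaging 5 or more counts per library entered the edgeR 4.0.16 quasi-likelihood test in R 4.3.3 (TMM, robust estimation, genotype as the only term), Benjamini-Hochberg adjustment covered all of them, and calls were made at 0.05. Means are ± SD over 6 mice, and the figure after ± beside a log2 fold change is its standard error. That error was derived as the size of the log2 fold change over the square root of the edgeR F statistic. The test was checked on simulated counts. Lengths and coordinates came from GENCODE M21 (67 of 68 symbols matched). Ratios were compared by exact permutation. Alternatives changed the tool (DESeq2 1.42.0, or voom in limma 3.58.1), the scaling (upper quartile, RLE), the filter (none, filterByExpr, averages of 20 or more) or the robust step, added the replicate number as a block, or omitted each mouse in turn.

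The members, their classes, the marker lists and the list of other vesicle genes were chosen with earlier results of these data known. Named were both genes of each isoform pair, a list of well-known members, every member with an unadjusted p under 0.05 or with separate genotypes, the 5 highest per kilobase, members under the filter, and list genes with an unadjusted p under 0.05. The results of 2 members and of the 2 ratios that use them are not reported here, but both members stay in the counts, medians and sums. The ratios within neuronal families, and other genes named as an end of a range or to complete a family, were chosen after their values were seen. Libraries of the same genotype differed by 13.4 to 70.6 times the counting error (chi-square per degree of freedom, 30 pairs), so none was a duplicate. Mice are separate samples in the labels, the study's methods take replicates from more than 1 litter, and which mouse came from which litter is not given in the sources used here.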

Additional observations from a re-analysis of the deposited data

Results flagged for a closer look

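Of 102 groups of 6 mice examined (each named gene, ratio and marker sum in each genotype), 7 held a highest or lowest mouse whose gap to the nearest of the others exceeded Dixon's critical share of the range of the group, where chance alone gives about 5%. Mutant 4 was that mouse in 5 of them, each time as the highest. The 7 flagged groups are close to the chance share. All groups of a genotype hold the same mice, so the 5 flags are not 5 separate findings about mutant 4. *Sv2c* was at 58.8 CPM there against 5.47 to 16.7 CPM in the other mutants, *Syn2* at 24.5 against 2.08 to 6.68 CPM, *Syt1* at 102.4 against 44.6 to 61.8 CPM, *Syt11* at 117.7 against 31.9 to 61.6 CPM, and *Unc13a* at 24.5 against 6.50 to 12.4 CPM. These are the mouse and the direction in which *Prph* (155.0 CPM) and *Scn9a* (59.5 CPM) also stood apart.

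The remaining 2 lay in other mice. *Syt4* was at 3.16 CPM in mutant 3 and 14.7 to 16.96 CPM in the other mutants. *Stxbp2* was at 69.4 CPM in control 5 and at 58.3 to 61.1 CPM in the other controls.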

How the results depend on the processing

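The direction of the contrast between the classes held under all 21 alternatives: the median log2 fold change stayed between 0.52 and 0.78 for the neuronal and between -0.02 and 0.03 for the ubiquitous genes. The number of members past adjustment depended on the setting. It was 17 (15 neuronal) with DESeq2, 0 with limma-voom, 2 without a filter (both neuronal) and 0 to 14 (0 to 12 neuronal) when 1 mouse was left out, being 0 in 9 of those 12 cases and 14 without mutant 5. Over all genes the share called in either direction was 3.35% with DESeq2, 0.103% with limma-voom and 0.199% without a filter. With 1 mouse left out that share ran from 0.0758% to 1.93%, the highest without mutant 5. limma-voom gave *Rims1* an adjusted p of 0.110. Members lower at an unadjusted p under 0.05 numbered 2 with DESeq2 and without a filter, and 0 to 2 with 1 mouse left out (neuronal 0 to 1, ubiquitous 0 to 1, and ubiquitous higher 0 to 1). In the list of other vesicle genes, 9 were called with DESeq2 and 0 to 6 with 1 mouse left out, where 12 to 22 were higher and 1 to 2 lower at the unadjusted threshold.

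With 1 mouse left out the *Snap25*/*Snap23* difference ranged from 2.35 to 3.19. Deviations of mice with the same replicate number correlated at -0.23, 0.20, 0.33, -0.21, 0.06 and 0.27, the own number being best in 2 of 6. With so few mice and unknown litters this cannot settle whether the numbers pair them. With the replicate number as a block, 6 members (5 neuronal) and 0.71% of all genes were called, 0 were lower at the unadjusted threshold and 1 gene of the other list was called, and the *Snap25*/*Snap23* difference of 2.72 had an adjusted p of 0.0625. Of 42 named genes, 4 with log2 fold changes of at most 0.044 in size changed sign under some alternative, and none of them was called. The causes of these shifts were not tested. Depth limits only the genes with few reads, such as *Cplx3*, *Cplx4* and *Stx19*.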
